A study of Apis mellifera with 13 samples.

Results

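Long differentially methylated regions, meaning regions of 10 or more CpGs, were selected by their number of CpGs alone from the lists of regions made for 2 diet comparisons in honey bees (Apis mellifera). They numbered 329 of 8887 regions (3.70%) for ethanol against control and 401 of 9689 regions (4.14%) for curcumin and ethanol against ethanol, or 730 of 18576 in all. A CpG cluster is a run of tested CpGs lying close to each other, within which the regions were drawn. Long regions were sorted by whether they took in every CpG of their cluster (whole-cluster regions) or only some of them (part-cluster regions). The number of CpGs in a region depends on the measured differences, so that the values below describe regions picked on the same data and are given without a test of their own.

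The data came from whole genome bisulfite sequencing of the abdomen, with its adhering fat body and without gut and stinger, of single bees of the carnica strain. 3 bees were fed a stock diet with 1% (v/v) ethanol and 100 µg/ml curcumin, 5 bees the stock diet with 1% ethanol and 5 control bees the stock diet alone, all for 10 days. The bees of a diet came from 2 cages, and since 0 cages mixed diets, cage and diet cannot be told apart. The 5 ethanol bees stand on both sides of the study, as the treated bees of the first comparison and as the reference bees, without curcumin, of the second. The tables hold 1 value per region and comparison and no value of a single bee, and the depth behind a region is not known from them.

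In the honey bee, methyl groups are found on few CpGs, and mostly in the bodies of genes that are active in many tissues. Neighbouring CpGs of a gene body tend to be methylated together, which is why methylation differences are often read over runs of CpGs and not at single sites. The fat body is the insect tissue that stores energy and takes on many tasks of the vertebrate liver. Curcumin is a polyphenol from turmeric.

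The mean difference of a region is the difference between the groups averaged over its CpGs, taken to be smoothed and on the scale of arcsine transformed methylation levels, and is positive where methylation was higher in ethanol bees than in control bees, or in curcumin and ethanol bees than in ethanol bees. The opposing share is the part of the summed absolute difference of the single CpGs that ran against the sign of the region. A region with an opposing share of 0 is called one-signed. The significant share is the part of the summed absolute difference carried by CpGs that the authors marked as significant by themselves. The threshold behind this mark is not known here.

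Long regions were few but held many of the CpGs. They covered 4386 of the 27187 CpGs in listed regions (16.1%) for ethanol against control and 5440 of 30707 (17.7%) for curcumin and ethanol against ethanol. The summed length was 391.25 kb in the first comparison and 503.965 kb in the second. The median region of either list had 2 CpGs, and the region with most CpGs had 51. When all regions were ordered by the size of their summed difference, the first 10 were long in both comparisons, as were 49 of the first 50 in each. Ordered by the size of the mean difference, which does not grow with the number of CpGs, 0 of the first 100 regions were long for ethanol against control and 1 of 100 for curcumin and ethanol against ethanol. The summed difference grows with the number of CpGs by which the regions were chosen, and the order by mean difference is led in part by scores beyond what an arcsine difference can reach (40 regions in the first comparison and 7 in the second, 0 of them long).

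The cutoff fell in a continuous range. Regions of exactly 10 CpGs numbered 90 for ethanol against control, with a median length of 865.5 bp and a median absolute mean difference of 0.174, and 16 of them were one-signed. Regions of 9 CpGs, just outside, numbered 135, with medians of 853 bp and 0.189, and 39 of them were one-signed. For curcumin and ethanol against ethanol, 100 regions of 10 CpGs had medians of 780.5 bp and 0.178 with 25 one-signed, and 154 regions of 9 CpGs had medians of 750 bp and 0.184 with 30 one-signed.

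Of the long regions, 4 for ethanol against control had an adjusted region p under 0.05 (Benjamini-Hochberg over all 8887 regions), beside 0.0450% of all regions called. The second comparison had 3 called long regions, beside 0.0310% of all 9689 regions. The region p values of the second comparison may not be its own, for reasons given at the end of these results. This limit holds for every call, region p and adjusted p given for that comparison. With the deposited Sidak-corrected region p under 0.05 in place of the adjusted p, 5 long regions passed for ethanol against control, beside 0.0900% of all, and 4 for curcumin and ethanol against ethanol, beside 0.0826%. The region p combines the CpG p values of a region, so it can depend on the number of CpGs that defines long regions. All regions called by the adjusted p were long in both lists. They lay in 4 loci, all in gene bodies by the study's own annotation, and whole-cluster and part-cluster regions were both among them.

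The region in GB47217, a calcitonin receptor, took in all 35 CpGs of its cluster on linkage group 11 of Amel 4.5 (8574209 to 8576963, 2754 bp). Its mean difference between ethanol and control bees was 0.690, the largest of all long regions in either comparison, with an opposing share of 0.0459% and a significant share of 82.3% (adjusted p of 3.57e-12). In curcumin and ethanol bees against ethanol bees, the first 30 of these 35 CpGs formed a region of 1342 bp with a mean difference of -0.244, an opposing share of 1.51% and a significant share of 17.7% (adjusted p of 8.69e-13). This region took in 85.7% of the cluster, and the last CpGs of the cluster held another listed region of 2 CpGs at 0.227, of the opposite sign.

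GB49219 corresponds to the fly gene Gudu, known for its role in sperm formation. Its region on linkage group 7 (4379616 to 4382415) took in all 29 CpGs of its cluster in both comparisons and, at 2799 bp, was the longest whole-cluster region of each. The mean difference was 0.387 for ethanol against control (adjusted p of 0.000784) and -0.393 for curcumin and ethanol against ethanol (adjusted p of 0.000570), and no CpG ran against the sign in either. The significant share was 15.4% and 22.8% in the order of the comparisons, beside 82.3% and 17.7% in the regions of GB47217.

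In GB43904, which codes for a protein of intraflagellar transport, the movement of building material along cilia, the ethanol region took in 17 of the 35 CpGs of its cluster on linkage group 8 (6515698 to 6517761, 2063 bp), with a mean difference of 0.402, an opposing share of 1.25% and a significant share of 67.7% (adjusted p of 0.00240). In the second comparison the first part of the same stretch was listed as a called region of 11 CpGs from the same start (1097 bp, mean difference -0.432, adjusted p of 0.000104). It was followed after 1 unlisted CpG and 403 bp by another long region of 10 CpGs with a mean difference of -0.144. The 2 regions shared their sign but not their size.

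GB52826, which codes for a transmembrane protein, held the only called region with lower methylation in ethanol than in control bees. It took in 15 of 21 CpGs on linkage group 8 (9094851 to 9097774, 2923 bp), and the mean difference was -0.602, with an opposing share of 0.350% and a significant share of 67.5% (adjusted p of 0.00457). Summed over its CpGs and divided by their number, the difference was -0.490, smaller than the smoothed value. The overlapping region with the longest overlap in the second comparison had 6 CpGs and so was not long (mean difference 0.204, adjusted p of 0.0952).

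Regions that filled their cluster were a small class of equal number in both comparisons, with 22 of 329 long regions (6.69%) for ethanol against control and 22 of 401 (5.49%) for curcumin and ethanol against ethanol. Their clusters were small, with 10 to 35 CpGs in the first comparison and 10 to 41 in the second, while the clusters of part-cluster regions had a median of 33 CpGs and up to 130 in both. Of long regions in clusters of 10 to 14 CpGs, 12 of 19 and 13 of 22 were whole-cluster, and in clusters of that size a long region takes in most CpGs by the cutoff alone. In clusters of 15 to 20 CpGs the counts were 4 of 48 and 5 of 62, and in clusters of over 40 CpGs 0 of 103 and 1 of 132, in the order of the comparisons. A further 8 regions in each comparison lacked a single CpG of their cluster.

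**Figure D1:**
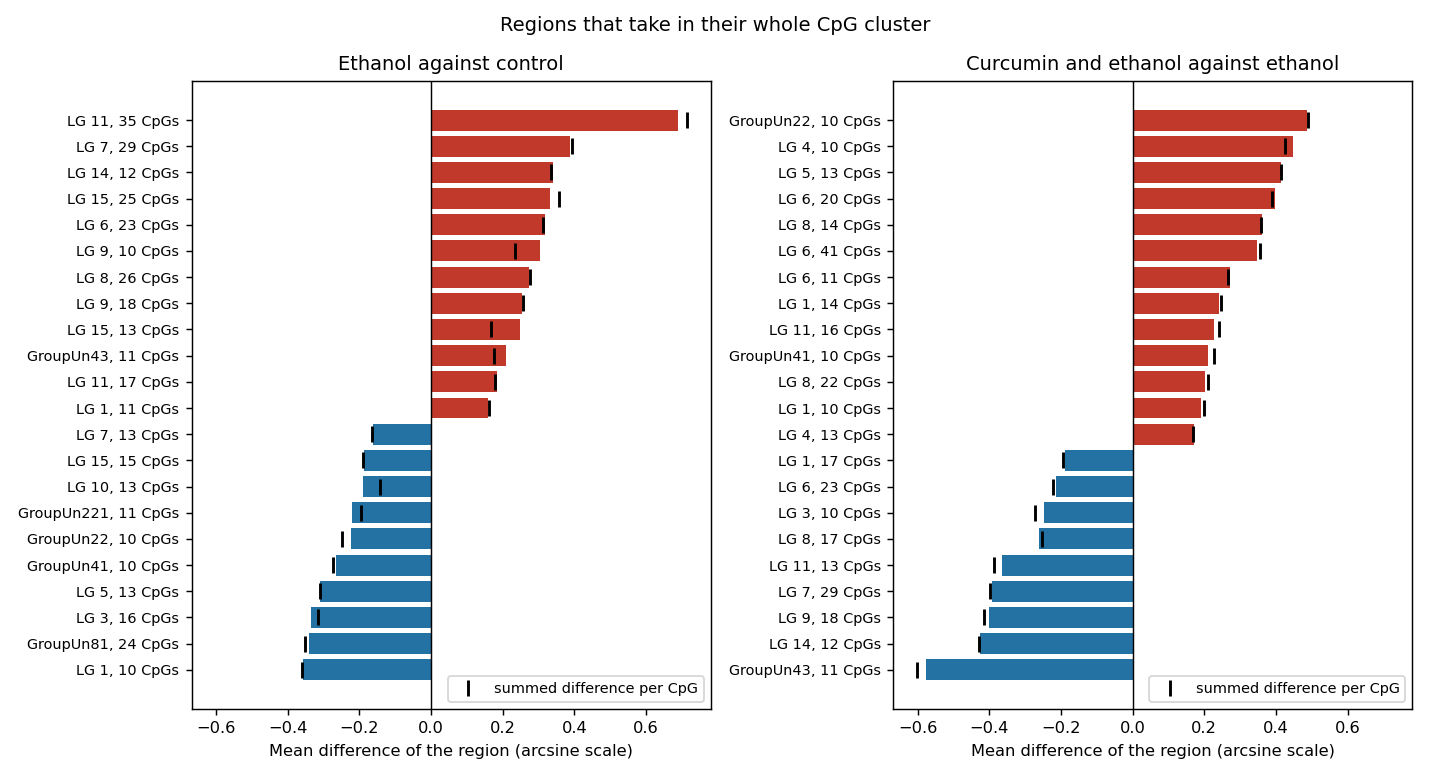
Mean difference (horizontal axis, arcsine scale) of the 22 whole-cluster regions of each comparison, 1 bar per region labelled with its linkage group (LG) or unplaced scaffold and its CpGs, red where methylation was higher in the group named first and blue where it was lower. The black tick is the summed difference per CpG. The 35-CpG region of linkage group 11 reached 0.690 for ethanol against control and the 11-CpG region of GroupUn43 -0.577 for curcumin and ethanol against ethanol.

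Whole-cluster regions had larger differences than part-cluster regions. The median absolute mean difference between ethanol and control bees was 0.268 in whole-cluster and 0.176 in part-cluster regions, beside 0.158 in all listed regions. Between curcumin and ethanol and ethanol bees it was 0.309 in whole-cluster and 0.185 in part-cluster regions, beside 0.161 in all. The order held when only clusters of 10 to 20 CpGs were taken, where the medians were 0.235 against 0.178 in the first comparison and 0.316 against 0.183 in the second. No whole-cluster region had an absolute mean difference below 0.159 in the first or below 0.170 in the second. The lowest part-cluster values, 0.106 and 0.109, lay close to 0.1, the value that every listed region reached. The part-cluster class held far more regions, and a lowest value tends to fall with their number. How much of its cluster a region takes in depends on the same differences, so part of this order may have been fixed when regions were made.

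Direction was mixed in both classes. Methylation was higher in ethanol than in control bees in 12 of 22 whole-cluster and 169 of 307 part-cluster regions, together 55.02% of the long regions beside 50.5% of all regions. It was higher in curcumin and ethanol than in ethanol bees in 13 of 22 whole-cluster and 163 of 379 part-cluster regions, together 43.9% beside 49.1%. The shares were on different sides of 50% in the part-cluster class and on the same side in the whole-cluster class, whose 22 regions leave a wide counting interval.

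The whole-cluster regions after GB47217 and GB49219 in CpG number were varied. On linkage group 8, a whole cluster of 26 CpGs within 909 bp (2426857 to 2427766) had a mean difference of 0.272 for ethanol against control with no opposing CpG and no CpG significant by itself (region p of 0.132). On linkage group 6, a whole cluster of 23 CpGs (4724682 to 4726486) was listed with the same bounds in both comparisons, with mean differences of 0.318 for ethanol against control and -0.214 for curcumin and ethanol against ethanol. The whole-cluster region with most CpGs in either list was also on linkage group 6, with 41 CpGs over 2550 bp (7461551 to 7464101). Its mean difference of 0.348 between curcumin and ethanol and ethanol bees came with a significant share of 21.7% and an opposing share of 0.757%. A region of 7 CpGs with a mean difference of -0.134 for ethanol against control lay in the same cluster. A whole cluster of 20 CpGs with a mean difference of 0.398 (7458190 to 7459989), named here after its values were seen, came before it on the linkage group, so that 2 neighbouring clusters were both taken in completely with higher methylation in curcumin and ethanol bees.

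Among the long regions of the second comparison, the first and second in size of the mean difference filled small whole clusters. GroupUn43, an unplaced scaffold, held an 11-CpG region at -0.577 for curcumin and ethanol against ethanol, with a significant share of 41.6%, and the same bounds were listed at 0.209 for ethanol against control. GroupUn22 held a whole cluster of 10 CpGs at 0.485, against -0.222 in the first comparison. The next were part-cluster regions, with 11 of 30 CpGs on linkage group 16 at 0.476, 10 of 25 CpGs on GroupUn22 at 0.463 and 13 of 37 CpGs on GroupUn145 at 0.460. The summed difference per CpG was 0.474 on linkage group 16. It was only 0.241 in this GroupUn22 region (opposing share 26.5%) and 0.111 on GroupUn145 (30.7%). None of the regions named in this paragraph was called by the adjusted p. On linkage group 4, a whole cluster of 10 CpGs spread over 2022 bp (2668390 to 2670412) had a mean difference of 0.447 and a significant share of 73.8%, the highest of the long regions of that comparison, and 9 of these CpGs were listed for ethanol against control at -0.364. These pairs of values come from 2 comparisons that use the same 5 ethanol bees, so that a deviation of those bees enters both with opposite sign.

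In all, 8 whole clusters were listed completely in both comparisons. Besides GB49219, linkage group 6, GroupUn43 and GroupUn22, these were 12 CpGs within 418 bp on linkage group 14 at 0.339 for ethanol against control and -0.426 for curcumin and ethanol against ethanol, and 18 CpGs on linkage group 9 at 0.253 and -0.402 in the same order. The others were 10 CpGs on linkage group 1 at -0.357 and 0.190, and 10 CpGs on GroupUn41 at -0.264 and 0.211. The remaining 14 whole-cluster regions of each comparison were listed in the other comparison in part or not at all.

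Many long regions had no CpG that was significant by itself. This was the case for 10 of 22 whole-cluster and 136 of 307 part-cluster regions for ethanol against control, and for 11 of 22 and 164 of 379 in the second comparison. Among regions of 2 to 9 CpGs it was 79.6% and 77.5%. A region with more CpGs has more chances to hold a significant one, so this order follows in part from the cutoff. The highest significant share was 82.3% in the first comparison, in GB47217, and the medians over all long regions were 11.5% and 10.9%.

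Whole-cluster regions ran somewhat longer than part-cluster regions. The median length for ethanol against control was 1258 bp (quartiles 871.5 and 1783, range 251 to 2799) for whole-cluster and 1022 bp (quartiles 691 and 1515, range 157 to 4273) for part-cluster regions. In the second comparison it was 1301 bp (quartiles 973 and 1934, range 418 to 2799) and 1128 bp (quartiles 690 and 1648, range 207 to 4411). The quartile ranges overlapped widely in both comparisons. Regions of 2 or more CpGs had a median length of 265 bp and 270 bp, in the order of the comparisons.

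**Figure D2:**
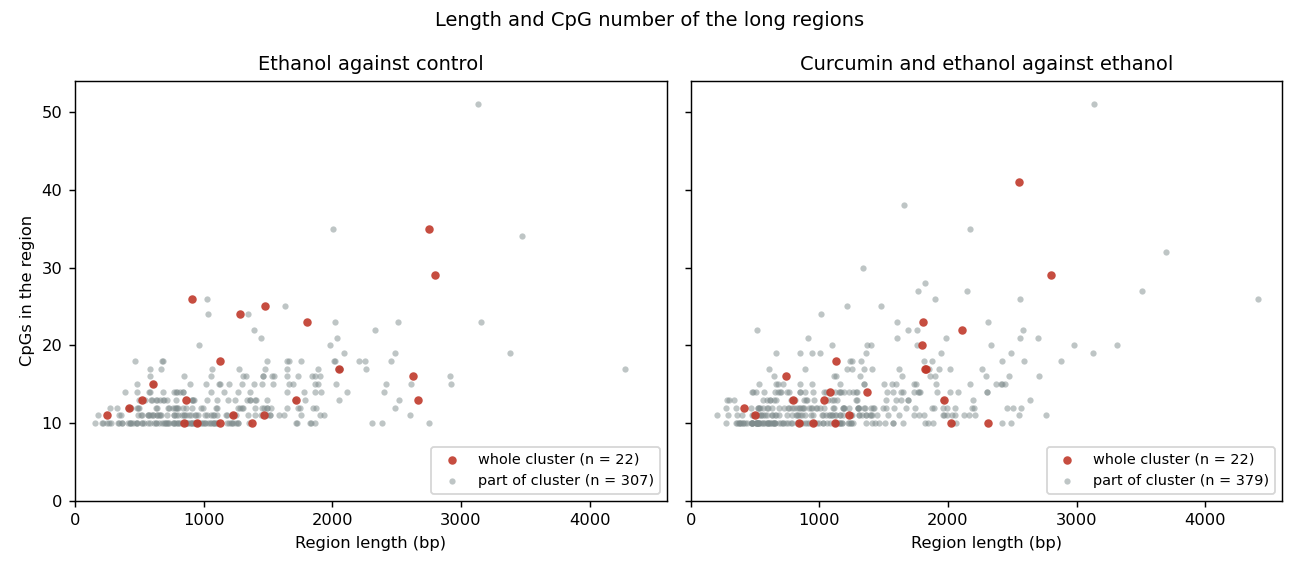
Length in bp (horizontal axis) and number of CpGs (vertical axis) of the 329 long regions for ethanol against control and the 401 for curcumin and ethanol against ethanol, red for whole-cluster and grey for part-cluster regions. Both classes share the range from 10 to 35 CpGs and from 418 to 2799 bp, and the longest regions, of 4273 and 4411 bp, took in part of their cluster.

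CpG density, the number of CpGs per kb of region, differed little between the classes. The medians were 12.3 CpGs per kb in whole-cluster and 11.6 in part-cluster regions for ethanol against control, and 10.8 in whole-cluster and 11.8 in part-cluster regions for the other comparison. The order of the classes thus changed between the comparisons, but not in clusters of 10 to 20 CpGs, where whole-cluster regions had a median of 9.73 and part-cluster regions of 9.99 in the first comparison, and 10.8 and 11.9 in the second. Regions of 2 or more CpGs had medians of 14.1 and 14.4 CpGs per kb. Dividing the CpGs by the length raises the density most in regions of few CpGs. These medians are therefore not directly comparable with those of long regions. Single regions differed far more than the classes did. The densest was a part-cluster region on linkage group 4 with 10 CpGs in 157 bp (63.7 CpGs per kb), and the sparsest a part-cluster region on linkage group 8 with 10 CpGs in 2752 bp (3.63 CpGs per kb), both from ethanol against control. Among whole clusters, density ran from 43.8 CpGs per kb for 11 CpGs in 251 bp on linkage group 1 to 4.33 for 10 CpGs in 2308 bp on linkage group 3.

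The longest regions were sparse. A region of 17 CpGs on linkage group 13 spanned 4273 bp for ethanol against control, with a mean difference of -0.218, an opposing share of 4.08% and no CpG significant by itself. A region of 26 of 47 CpGs on linkage group 11 spanned 4411 bp for curcumin and ethanol against ethanol, with a mean difference of 0.252, but with an opposing share of 14.8%. Neither took in its whole cluster, and neither was called (adjusted p of 0.704 and 0.998, Benjamini-Hochberg over all regions of each table).

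Regions that filled their cluster were more often one-signed. In the first comparison 12 of 22 whole-cluster regions had no opposing CpG (54.5%, Wilson 95% interval 34.7 to 73.1%), against 46 of 307 part-cluster regions (15.0%, 11.4 to 19.4%). In the second the counts were 14 of 22 (63.6%, 43 to 80.3%) and 65 of 379 (17.2%, 13.7 to 21.3%). These intervals cover counting error only, and neighbouring regions are not independent. Since every region is a run of CpGs with 1 smoothed sign, part of this was fixed when regions were made. Short regions were mostly one-signed as well, with 62.5% of regions of 2 to 9 CpGs in each comparison. In clusters of 10 to 20 CpGs, 8 of 16 whole-cluster and 15 of 51 part-cluster regions were one-signed for ethanol against control, and 13 of 18 and 19 of 66 for curcumin and ethanol against ethanol.

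**Figure D3:**
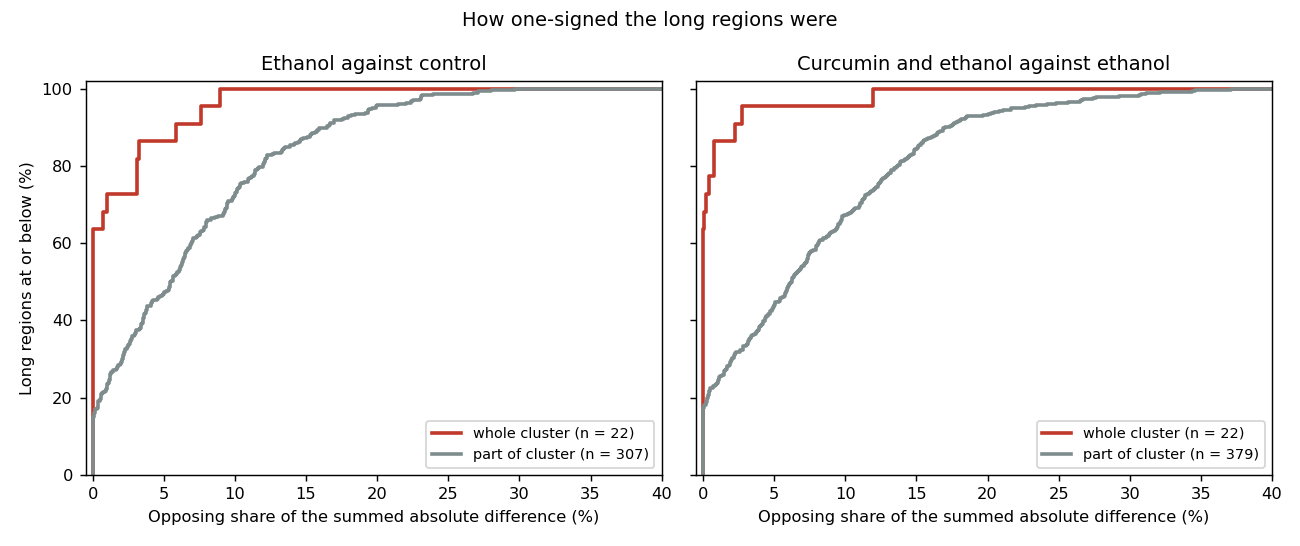
Cumulative share of long regions (vertical axis, %) at or below a given opposing share of the summed absolute difference (horizontal axis, %), in red for whole-cluster and in grey for part-cluster regions of each comparison. No whole-cluster region passed 8.94% for ethanol against control or 11.96% for curcumin and ethanol against ethanol, whereas part-cluster regions reached 29.7% and 37.1%.

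The opposing share fell with the part of the cluster a region took in. Its median for ethanol against control was 6.39% in the 66 regions with under 25% of their cluster, 5.99% in the 140 regions with 25 to under 50%, 4.12% in the 75 regions with 50 to under 75%, 1.35% in the 26 regions with 75 to under 100%, and 0 in whole clusters. The medians along the same steps for curcumin and ethanol against ethanol were 8.25%, 6.39%, 5.50%, 1.93% and 0. The order was the same in both comparisons. The steps differ in cluster size too, from a median of 58.5 CpGs in the first to 13 in the last for ethanol against control, so that the part taken in and the size of the cluster cannot be told apart here.

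Opposing CpGs weighed most in a few part-cluster regions. An opposing share of over 20% was found in 13 regions of the first comparison and 26 of the second, and none of them was whole-cluster. In a region of 10 of 29 CpGs on linkage group 3, 29.7% of the ethanol difference ran against its sign (mean difference 0.147). In a region of 12 of 27 CpGs within 353 bp on linkage group 4, 37.1% of the difference between curcumin and ethanol and ethanol bees did so, and the summed difference per CpG was 0.0552 against a mean difference of 0.118. GroupUn145 showed the widest departure among the named regions, with a mean difference of 0.460 over 13 CpGs but 0.111 per CpG and an opposing share of 30.7%. By the summed difference per CpG, such regions would not stand among the largest.

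Part-cluster regions ranged widely in CpG number. The region with most CpGs of all, 51 of the 57 CpGs of its cluster on linkage group 12 (8599810 to 8602944, 3134 bp), was listed with identical bounds in both comparisons, at 0.206 for ethanol against control and -0.224 for curcumin and ethanol against ethanol. The opposing share was 3.40% and 5.90%, and the region was not called in either (region p of 0.136 in both). On linkage group 9, regions of 35 of 37 CpGs overlapped by 1943 bp in the comparisons, at -0.320 for ethanol against control and 0.305 for curcumin and ethanol against ethanol, with no CpG significant by itself in either. On linkage group 1, 38 of 70 CpGs formed a region at -0.192 in the second comparison (opposing share 11.97%), overlapped in the first by a region of 15 of 70 CpGs at 0.190. Of the 4 regions of 30 or more CpGs in the first comparison, 1 was whole-cluster (GB47217, at 0.690). The part-cluster ones had mean differences of 0.206, -0.320 and -0.179, the last over 34 of 38 CpGs on linkage group 4. With both classes included, the median absolute mean difference of the 4 was 0.263, beside 0.179 in all long regions. In the second comparison the median over 6 such regions of both classes was 0.259, beside 0.189 in all long regions. These 6 included the whole cluster of 41 CpGs on linkage group 6 (0.348).

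Several clusters held more than 1 long region. In the first comparison these were 10 of the 318 clusters with a long region, of which 1 on linkage group 5 held 3, and in the second 26 of 375. These clusters were large, with 29 to 96 CpGs in the first comparison and 35 to 107 in the second. The neighbouring regions had opposite signs in 6 of 11 pairs in the first comparison and in 16 of 26 in the second. A pair of opposite sign was separated by a median of 12 CpGs for ethanol against control and 1.5 CpGs for curcumin and ethanol against ethanol.

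**Figure D4:**
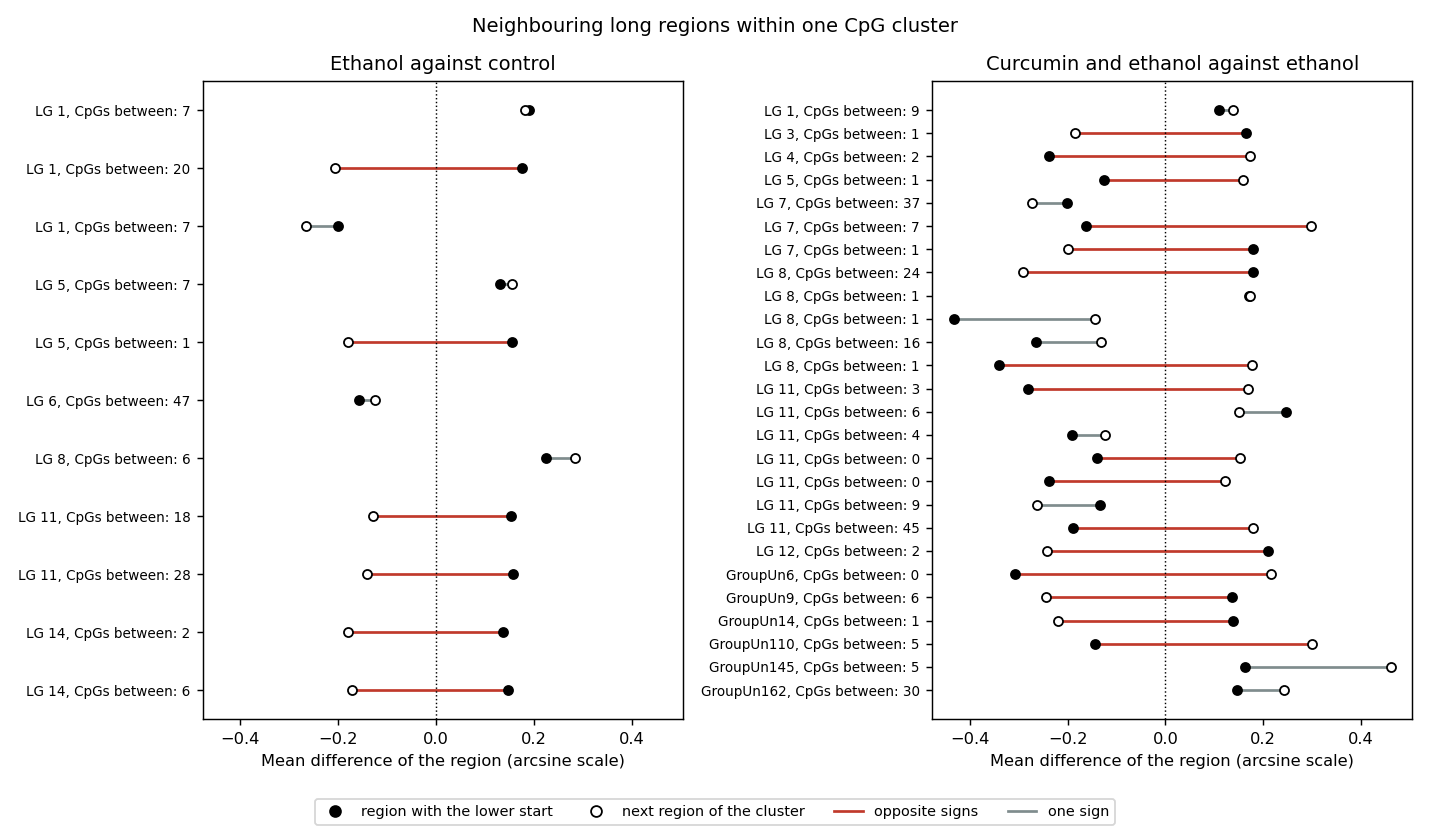
Mean differences (horizontal axis, arcsine scale) of neighbouring long regions within 1 cluster, 1 line per pair labelled with its linkage group or scaffold and the CpGs between the regions, red where the signs were opposite. Of the pairs, 6 of 11 for ethanol against control and 16 of 26 for curcumin and ethanol against ethanol had opposite signs.

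The sign changed abruptly in some of these clusters. Pairs with 0 CpGs between them were found only for curcumin and ethanol against ethanol, where there were 3, all of opposite sign. Their opposite sign was fixed when regions were made, since adjoining runs of the same smoothed sign would form a single region. On GroupUn6, 17 CpGs at -0.307 were followed, after 330 bp without a tested CpG, by 12 CpGs at 0.216. On linkage group 8, 10 CpGs at -0.339 and 13 CpGs at 0.177 lay in a cluster of 40 CpGs with 1 CpG between them. The triple of linkage group 5 in the first comparison had mean differences of 0.131, 0.155 and -0.180 along the cluster. Other clusters kept their sign over a long run, such as 1 on linkage group 8 with 24 CpGs at 0.224 and 14 CpGs at 0.285 for ethanol against control, 6 CpGs apart. These pairs were chosen for description after their values were seen.

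Long regions were found on every linkage group and on unplaced scaffolds in both comparisons. Of the linkage groups, 8 and 11 had the highest shares of long regions in both comparisons. In the first comparison, 7.63% of the regions of 2 or more CpGs on linkage group 8 and 7.65% of those on linkage group 11 were long, beside 5.77% over all linkage groups and scaffolds. In the second it was 10.4% on linkage group 8 and 10.5% on linkage group 11, beside 6.45%. Counted per 1000 tested CpGs, linkage group 8 had 4.30 long regions and linkage group 11 had 4.75 in the first comparison, beside 3.32 over all, and 6.25 and 6.82 in the second, beside 4.04. The lowest values were 2.02 on linkage group 7 for ethanol against control and 2.33 on linkage group 10 for curcumin and ethanol against ethanol. The Wilson intervals of single linkage groups were wide. In both comparisons those of linkage groups 8 and 11 overlapped the intervals of several other linkage groups. In the first comparison those of linkage groups 8 (5.61 to 10.3%) and 11 (5.64 to 10.3%) included the value over all. Linkage group 14 came close there, with 7.17% and 4.21 per 1000 tested CpGs. Linkage groups 8 and 11 are singled out for their values, and both comparisons use the same ethanol bees.

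**Figure D5:**
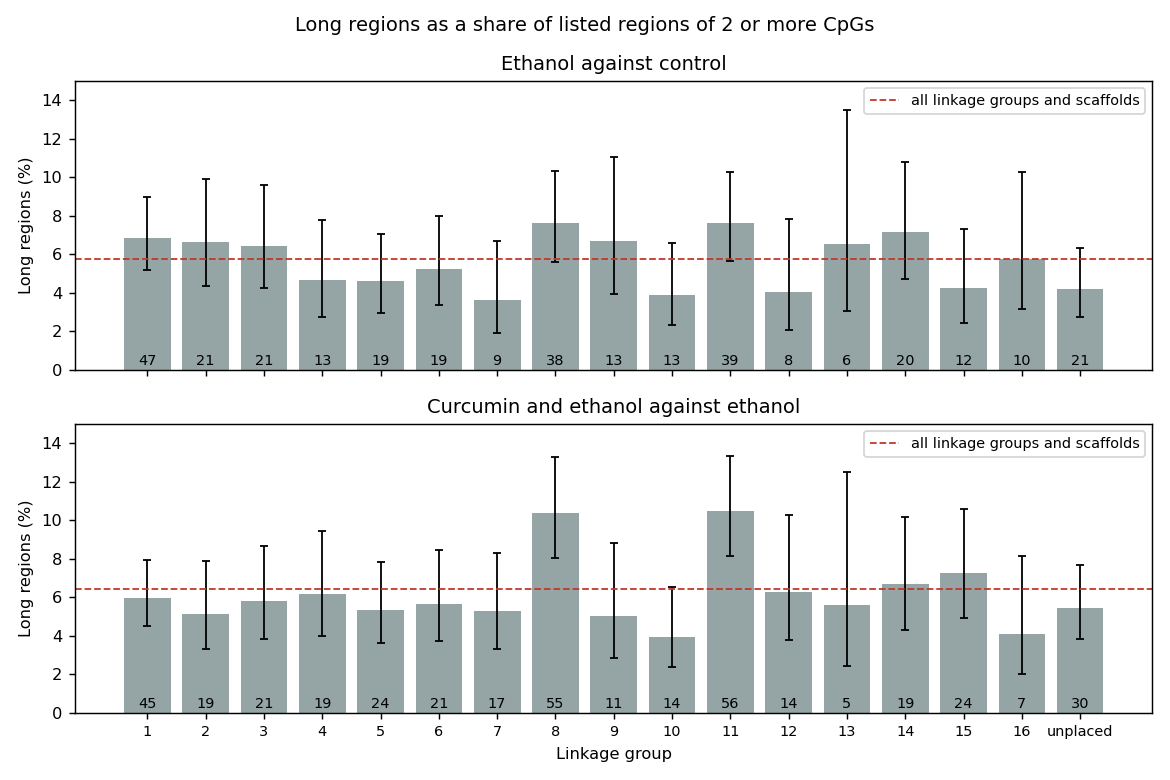
Long regions as a percentage of the listed regions of 2 or more CpGs (vertical axis) on each linkage group and on unplaced scaffolds (horizontal axis) for each comparison, with the number of long regions in the bar, Wilson 95% intervals as error bars and the value over all as a dashed line. Linkage groups 8 and 11 reach 7.63% and 7.65% for ethanol against control and 10.4% and 10.5% for curcumin and ethanol against ethanol.

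The long regions of linkage groups 8 and 11 were mostly part-cluster regions. Together these linkage groups held 77 long regions for ethanol against control, of which 3 were whole-cluster and 47 had higher methylation in ethanol bees. In the second comparison they held 111, of which 5 were whole-cluster and 47 had higher methylation in curcumin and ethanol bees. Linkage group 15 had most whole-cluster regions in the first comparison, with 3 of its 12 long regions, and linkage group 6 in the second, with 4 of 21. Unplaced scaffolds held 5 of the 22 whole-cluster regions in the first comparison and 3 of 22 in the second, against 16 of 307 and 27 of 379 part-cluster regions. Direction differed on single linkage groups, with higher methylation in ethanol bees in 7 of 20 long regions on linkage group 14, and higher methylation in curcumin and ethanol bees in 2 of 11 on linkage group 9.

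Before adjustment, 77 of 329 long regions had a region p under 0.05 for ethanol against control, beside 7.71% of all regions, with 13 of 22 in whole-cluster and 64 of 307 in part-cluster regions. In the second comparison 44 of 401 did, beside 4.69%, with 10 of 22 and 34 of 379. All regions include 3183 and 3468 of a single CpG, in the order of the comparisons. The region p combines the CpG p values of a region, so the number of CpGs may enter these shares. Next after the called regions were part-cluster CpGs on linkage group 11 for ethanol against control (15 of 16 CpGs, mean difference -0.301, adjusted p of 0.125) and the whole cluster of the same 16 CpGs for curcumin and ethanol against ethanol (mean difference 0.227, adjusted p of 0.238, Benjamini-Hochberg). A whole cluster of 10 CpGs on linkage group 1 had a region p of 0.000739 in both, at -0.357 for ethanol against control and 0.190 for curcumin and ethanol against ethanol.

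The region p values of the second comparison did not follow its own differences. All 18 long regions with identical bounds in both lists, 8 of them whole-cluster, carried the same region p in both, although for 0 of the 18 the mean differences matched in size within 1%. Of the long regions with a significant share of at least 30%, 23 of 59 (39.0%) had a region p under 0.05 for ethanol against control, but 6 of 62 (9.68%) for curcumin and ethanol against ethanol, where the share was 9.14% among long regions with no significant CpG. The 41-CpG cluster of linkage group 6 had a region p of 0.9996 in the second comparison. The region and adjusted p values given for curcumin and ethanol against ethanol, including those of its 3 called regions, may therefore not be those of that comparison, and the cause was not tested.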

How the data were processed

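DNA from 13 bees was sequenced after bisulfite treatment. The submitters' processing notes name CASAVA 1.8.2, FastQC 0.11.5, Trimmomatic, Bismark 0.16.3, Bowtie 1.0.0 and R 3.5.3, with alignment to Amel 4.5. The authors kept CpGs covered by 6 reads or more on average whose methylation reached 10% in 3 bees, and tested each after an arcsine transform. The scores of a region (mean difference, summed differences, significant sums) come from bumphunter and sums over CpGs as run by the authors, who deposited 1 value per comparison. The deposited region p values combine those of neighbouring CpGs (comb-p), and a Sidak-corrected value and an FDR stand beside them.

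Regions with at least 10 CpGs were taken from each table. Bounds are as listed, and length is end minus start. The deposited sums ran opposite to the mean difference in all 329 and all 401 long regions and were turned. Benjamini-Hochberg values over a whole table equalled the deposited FDR in all 8887 and 9689 regions. Counterparts in the other table shared at least 1 bp, the longest overlap being used. Some listed scores passed what an arcsine difference can reach (40 and 7 regions, 0 of them long), so the scale is taken from the methods and not certain. The tables hold 0 columns of single samples, so that no spread between bees can be given. Shares carry Wilson 95% intervals where stated.

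Regions named were taken from those with an adjusted p under 0.05 and, per comparison, the 3 next in region p. Per comparison and class, they also came from the 3 with most CpGs and the 3 with the largest mean difference. The longest, densest and sparsest and the 2 with the largest opposing share were used as well. Not every region picked in this way is described. Others are said to have been chosen after their values were seen, or are named because their whole cluster was listed completely in both comparisons. The members, classes and this rule were chosen with earlier results of these data known. Gene names are the 4 loci the study names, of which 0 matched the annotation table at hand. Alternatives covered the smallest number of CpGs, the cluster sizes, the definitions of whole-cluster and one-signed, the density, the correction and the linkage groups. Python 3.11.15, numpy 2.4.6, pandas 2.3.3, scipy 1.17.1 and matplotlib 3.10.9 were used, and the procedures were tested on simulated data.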

Additional observations from a re-analysis of the deposited data

How the results depend on the processing

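Of 65 alternatives over 22 results, 50 stayed within the limits set for a change and 15 moved. The number of long regions fixed by the cutoff was 625, 182 and 87 with at least 8, 12 and 15 CpGs for ethanol against control, and 753, 233 and 99 for curcumin and ethanol against ethanol. The share of whole-cluster regions became 11.5% and 9.09% with at least 15 CpGs and 23.9% and 21.4% in clusters of 10 to 20 CpGs, in the order of the comparisons, and 8.48% in the second with at least 90% of the cluster counted as whole. The one-signed share became 49.5% and 46.6% where an opposing share of up to 5% was allowed, and 34.3% and 38.1% in clusters of 10 to 20 CpGs. Counts of called regions, directions, medians of length and density and the higher values on linkage groups 8 and 11 stayed within these limits. The limits allowed sizeable shifts. The median length of whole-cluster regions in the second comparison went from 1301 bp to 1799 bp with at least 12 CpGs and stayed within them. So did the whole-cluster share of the first comparison, from 6.69% to 9.42% with at least 90% of the cluster counted as whole. The alternatives on numbered linkage groups, without linkage groups 8 and 11 and per cluster were chosen after seeing the data. No paired analysis was possible because the tables hold no value of a single bee, and for the same reason leaving out each bee was not run. The depth behind a region is unknown, and the number of bees limits every region p.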
